A study of Homo sapiens with 4 samples.

Results

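MicroRNA (miRNA) gene transcripts were followed in HT1080 cells, an established human fibrosarcoma line, under hypoxia and control conditions. They were chosen by symbol alone, as the probe sets whose annotation names exactly 1 gene with a symbol beginning MIR and a digit, or MIRLET, apart from 2 loci that were set aside. This gave 187 of the 18417 genes measured, of which 171 are miRNA genes and 16 are host RNA genes, whose symbols end in HG and whose long transcripts carry, or were named for, a miRNA. Each of the 187 had 1 probe set, and none shared all 4 values with another probe set. The cells were kept for 36 h at 1% oxygen (hypoxia) or at 21% oxygen (control), in medium with little serum in both cases. RNA was taken as ER-RNA, recovered with the isolated endoplasmic reticulum (ER), and as total RNA. Each of the 4 combinations was 1 array loaded with RNA pooled from 5 experiments, so nothing was replicated and the experiment-to-experiment spread is unknown. No p-values are therefore printed, and precision is limited by having so few arrays.

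A miRNA gene is transcribed into a long primary transcript, often from within an intron or exon of a host gene. The nuclear enzyme DROSHA and its partner DGCR8 cut out a hairpin, exportin 5 (XPO5) carries it to the cytoplasm, and DICER1 trims it to a mature miRNA that an Argonaute protein uses to find target mRNAs. Bases 2 to 8 of the mature miRNA, the seed, largely decide which mRNAs are bound. The array was hybridised with random-primed cDNA, so its values reflect primary, precursor or host transcripts and not mature miRNAs. They are RMA-normalized log2 signals, and a difference of 0.4854 on this scale is a fold change of 1.4.

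The mature sequences of the loci on which the results turn are given from RefSeq (GRCh38.p14), 5′ to 3′, with the seed in capitals. MIR221 and MIR222, neighbours on the X chromosome, share a seed.
hsa-miR-221-3p: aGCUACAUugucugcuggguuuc
hsa-miR-222-3p: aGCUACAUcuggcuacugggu
MIR31 lies within MIR31HG, and MIR196A1 was the other miRNA gene that passed the calling rule.
hsa-miR-31-5p: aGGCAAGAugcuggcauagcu
hsa-miR-196a-5p: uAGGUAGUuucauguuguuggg
The neighbours MIR23A, MIR27A and MIR24-2 carry 3 different seeds.
hsa-miR-23a-3p: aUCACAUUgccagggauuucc
hsa-miR-27a-3p: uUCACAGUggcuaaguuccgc
hsa-miR-24-3p: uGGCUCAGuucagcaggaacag
The let-7 family shares 1 seed across all of its genes, and 4 of its products are shown, from the loci with the highest total RNA fold changes in the family.
hsa-let-7d-5p: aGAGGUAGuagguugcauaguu
hsa-let-7f-5p: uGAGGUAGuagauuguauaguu
hsa-let-7g-5p: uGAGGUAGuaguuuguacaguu
hsa-let-7i-5p: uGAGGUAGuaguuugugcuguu
MIR29A and MIR29B1 also share a seed, and hsa-miR-210-3p is the miRNA best known for its induction by hypoxia.
hsa-miR-29a-3p: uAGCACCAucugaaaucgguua
hsa-miR-29b-3p: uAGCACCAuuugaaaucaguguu
hsa-miR-210-3p: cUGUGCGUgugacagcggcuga

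The array medians over all probe sets were 6.34 in hypoxia and 6.25 under control conditions in ER-RNA, and 7.49 in hypoxia and 7.41 under control conditions in total RNA. The fractions therefore do not share a scale, and hypoxia was compared with control within each. As a check of the cell line, 4 of 6 markers of mesenchymal cells (VIM, FN1, CD44 and COL5A1) lay above the median on all arrays. Of 9 markers of other cell types, 2 (PECAM1 and GFAP) had at least 1 array above the median in ER-RNA and 1 (GFAP) in total RNA. A gene passed the expression filter of a fraction if 1 or both of its 2 arrays lay above their own medians, and was called where it was also changed over 1.4-fold with a z-score over 3. The z-score is the log2 difference over an SD taken from a loess fit of SD on mean level, made here for each pair of hypoxia and control arrays.

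Most miRNA gene transcripts gave low signal. Of the 187, 41 passed the expression filter in total RNA and 42 in ER-RNA, 33 passed in both and 137 in neither. Among the expressed, 3 rose in total RNA (MIR221, MIR31HG and MIR196A1) and 1 rose in ER-RNA (MIR31HG). This is 7.32% of the 41 in total RNA, where 2.32% of all expressed genes rose, and 2.38% of the 42 in ER-RNA, where 1.12% of all expressed genes rose. With so few calls these shares describe single genes. None of the miRNA gene transcripts was called down, whereas among all expressed genes 7.45% did so in total RNA, and in ER-RNA 8.25%. By fold change alone, also without the expression filter, 1 of the 187 was lower in each fraction.

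MIR31HG, a long non-coding RNA gene on chromosome 9 known as a hypoxia-induced partner of HIF-1α and as the host of MIR31, was the single member called in both fractions. In total RNA its log2 value was 9.69 in hypoxia and 8.38 under control conditions, a rise of 2.48-fold with a z-score of 4.85. In ER-RNA it was 9.58 in hypoxia and 8.21 under control conditions, a rise of 2.58-fold with a z-score of 4.28. All 4 values lay above the medians of their arrays. With the SD taken from the scaled MAD, the call of MIR31HG was lost in both fractions. Ranked by fold change among the called genes, it was number 70 of 267 rises in total RNA and number 35 of 133 in ER-RNA. MIR31, which is processed to a miRNA linked to tumour invasion and lies inside MIR31HG, had a separate probe set with lower signal. Its log2 value was 7.33 in hypoxia and 6.56 under control conditions in total RNA (1.71-fold), and 5.42 in hypoxia and 5.16 under control conditions in ER-RNA (1.20-fold). MIR31 was under the expression filter in both fractions, so no call could be made, but it was higher in hypoxia on both pairs of arrays.

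MIR221 had the largest log2 fold change of the 187 in total RNA. Its miRNA is known to repress the cell-cycle inhibitor CDKN1B. In total RNA the log2 value was 8.93 in hypoxia and 7.56 under control conditions, a rise of 2.60-fold with a z-score of 5.90. In ER-RNA it was 6.61 in hypoxia and 6.20 under control conditions, 1.33-fold with a z-score of 1.44, and it was not called. The call in total RNA was lost where 1 array had to lie above its 75% quantile. The neighbouring MIR222 followed with 6.83 in hypoxia and 5.62 under control conditions in total RNA (2.33-fold), and with 5.63 in hypoxia and 4.75 under control conditions in ER-RNA (1.83-fold). The signal of MIR222 was under the expression filter in both fractions. Both genes of the pair, which share the seed GCUACAU, were thus higher in hypoxia in each fraction, and in total RNA by more than 1.4-fold.

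MIR196A1 lies in a HOX gene cluster on chromosome 17 and yields a miRNA that targets HOX mRNAs. It had a log2 value of 8.11 in hypoxia and 7.34 under control conditions in total RNA, a rise of 1.71-fold with a z-score of 3.22, close to the threshold. In ER-RNA the value was 6.05 in hypoxia and 6.31 under control conditions, and it was not called. The fractions thus differed in direction for this gene, and the control value in total RNA lay below the median of its array. The call of MIR196A1 was lost with a common array median (0.70 on the log2 scale), with a loess fit within the pair (0.69), with either stricter expression filter, with the scaled MAD and at a fold change over 2.

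**Figure D1:**
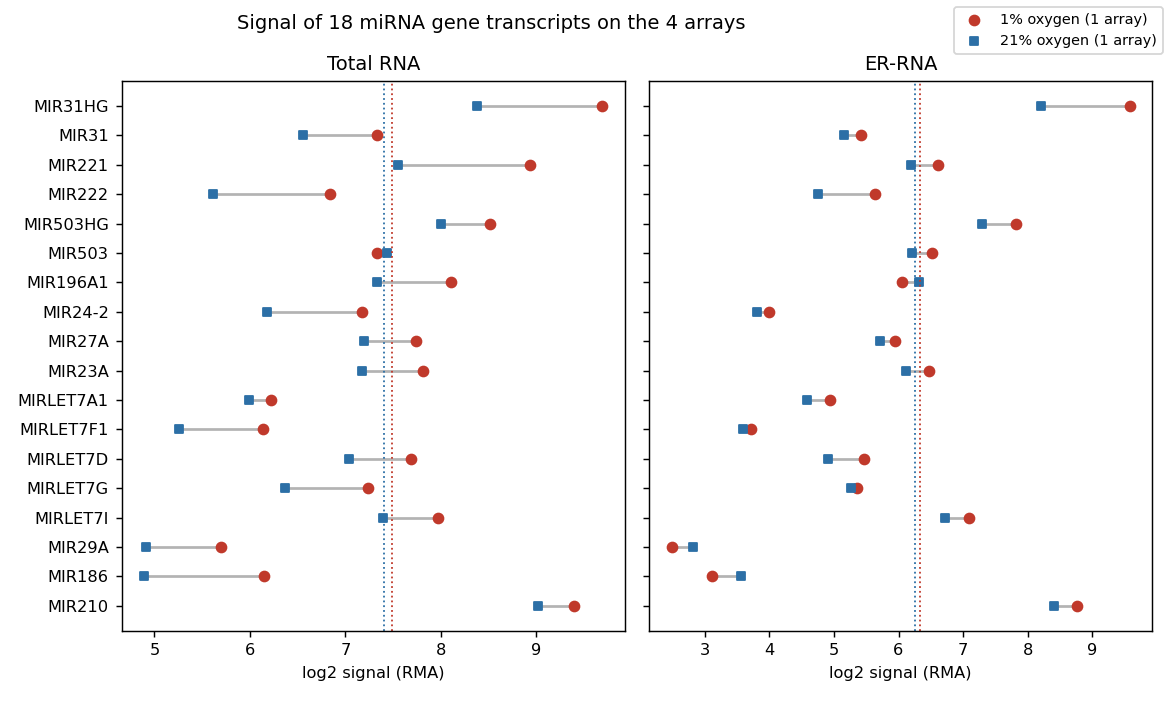
Log2 signal (RMA, x axis) of 18 miRNA gene transcripts named in the text, in total RNA (left panel) and ER-RNA (right panel), with red circles for 1% oxygen and blue squares for 21% oxygen, each 1 array, and dotted lines for the array medians. MIR31HG lies to the right of the medians in both panels, and the gap between the points of MIR221 is wide in total RNA (8.93 in hypoxia and 7.56 under control conditions) and narrow in ER-RNA (6.61 and 6.20).

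Without the expression filter, 31 of the 187 were more than 1.4-fold higher in hypoxia in total RNA (16.6%, against 5.22% of all genes) and 24 in ER-RNA (12.8%, against 6.57%). After each array was shifted to a common median the counts were 19 and 14, and a loess fit within the pair left 13 in ER-RNA. In the other direction 1 was more than 1.4-fold lower in total RNA, MIR646HG (0.609 of control), and 1 in ER-RNA, MIR183 (0.641 of control). With quantile normalization 2 were lower in total RNA, and 6 in ER-RNA. With a common median 4 were lower in ER-RNA. Among all genes 12.8% were lower by that much in total RNA and 14.9% in ER-RNA. Most of the 187 lie at low signal. Among all genes under the filter, 3.57% were more than 1.4-fold higher and 2.99% lower in total RNA, and 6.65% higher and 3.2% lower in ER-RNA. Of the miRNA gene transcripts under the filter, 15.8% were higher and 0.685% lower in total RNA, and 10.3% higher and 0.690% lower in ER-RNA.

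Over the 187, the log2 fold change in total RNA had a median of 0.22, beside 0.026 over all genes and 0.096 over genes under the filter. In ER-RNA it was 0.20, beside 0.057 over all genes and 0.14 over genes under the filter. Hypoxia gave the higher total RNA value for 149 (79.7%, against 53.1% of all genes) and the lower for 38 (lower in 46.8% of all genes). For ER-RNA it gave the higher value for 141 (75.4%, against 55.3% of all genes) and the lower for 33 (lower in 43.3% of all genes). Among those under the filter, 76.7% were higher in total RNA, against 68.0% of all genes under it, and 71.7% in ER-RNA, against 70.2%. The other 13 had the same value on both ER-RNA arrays, which held for 267 of all genes in ER-RNA and for 9 in total RNA. After each array was set to a common median, the medians of the 187 came to 0.14 for total RNA and 0.11 for ER-RNA. After a loess fit within each pair, they were 0.13 and 0.080.

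**Figure D2:**
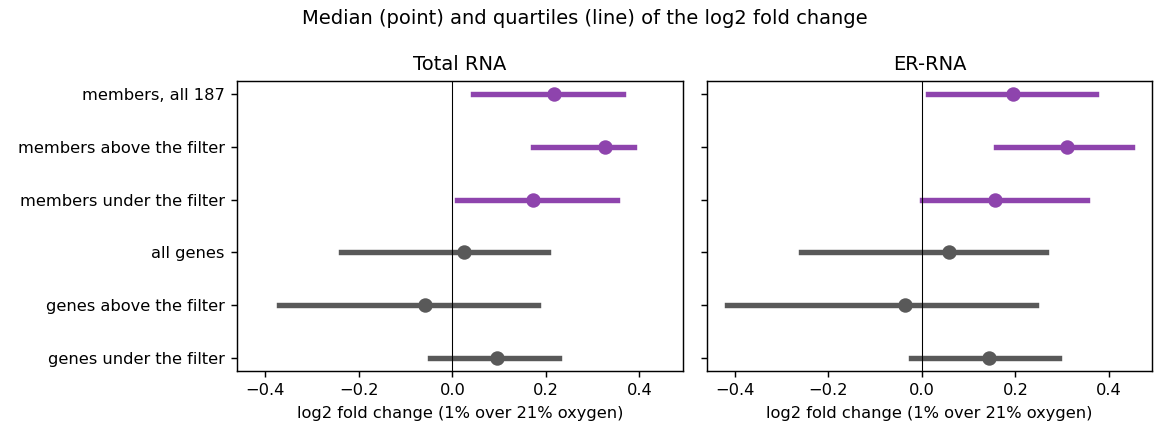
Median (point) and quartiles (line) of the log2 fold change, 1% over 21% oxygen, of the 187 miRNA gene transcripts (purple) and of all 18417 genes (grey), each also split by the expression filter, in total RNA (left) and ER-RNA (right). The medians of the 187 stand at 0.22 and 0.20, and those of all genes at 0.026 and 0.057.

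Across fractions, 113 of the 187 were higher in hypoxia in both and 6 were lower in both. In each fraction alone, 79.7% of the 187 were higher in total RNA and 75.4% in ER-RNA. More than 1.4-fold higher in both fractions were 6, namely MIR31HG, MIR222, MIR503HG, MIRLET7D, MIR425 and MIR142, and 25 were so in total RNA alone and 18 in ER-RNA alone. The same counts across fractions were not made for all genes, so these describe the 187 only. Of the 6, MIR31HG and MIR503HG passed the expression filter in both fractions. MIR503HG, the X-linked host of the growth-restraining MIR503, had log2 values of 8.52 in hypoxia and 8.01 under control conditions in total RNA (1.43-fold, z-score 2.19). In ER-RNA it had 7.82 in hypoxia and 7.30 under control conditions (1.43-fold, z-score 1.94), so it missed the z threshold in each. MIR503 itself was at 0.930-fold in total RNA, and in ER-RNA at 1.24-fold. MIR142, a gene of blood cells, was 0.49 higher on the log2 scale in total RNA, and in ER-RNA it stood at 2.37-fold. Its ER-RNA values (4.07 in hypoxia and 2.83 under control conditions) lay far below the medians. MIR425 had fold changes of 1.46 (total RNA) and 1.43 (ER-RNA, z-score 2.04).

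**Figure D3:**
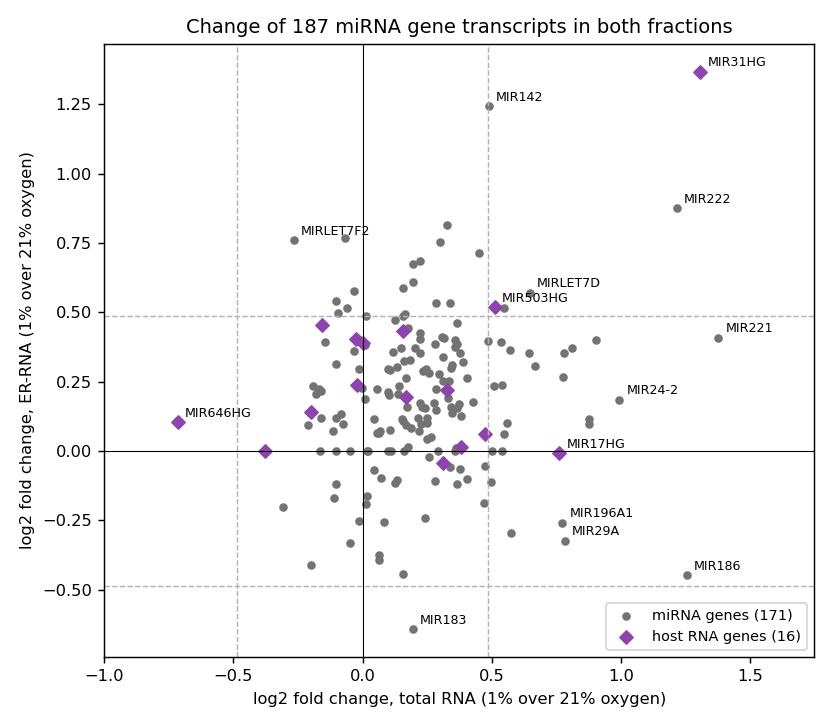
Log2 fold change, 1% over 21% oxygen, of the 187 miRNA gene transcripts in total RNA (x axis) and ER-RNA (y axis), with grey circles for the 171 miRNA genes, purple diamonds for the 16 host RNA genes and dashed lines at a fold change of 1.4. MIR31HG stands at the upper right (1.31 and 1.37), MIR221 at 1.38 on the x axis and 0.41 on the y axis, and MIR186 at 1.26 and -0.45.

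The let-7 family, which restrains growth through RAS and other targets, had 9 measured genes with the seed GAGGUAG. In total RNA 7 of the 9 were higher in hypoxia, with a median log2 fold change of 0.55, and 5 were over 1.4-fold, namely MIRLET7G (1.84-fold), MIRLET7F1 (1.84-fold), MIRLET7D (1.57-fold), MIRLET7I (1.49-fold) and MIRLET7C (1.46-fold). In ER-RNA all 9 were higher, with a median of 0.30, and 2 were over 1.4-fold, MIRLET7F2 (1.69-fold) and MIRLET7D (1.49-fold). Of the 187, 79.7% were higher in total RNA and 16.6% over 1.4-fold, and in ER-RNA 75.4% and 12.8%. Among all genes, 5.22% were over 1.4-fold higher in total RNA and 6.57% in ER-RNA. Most let-7 genes were named after their values were seen. MIRLET7I, 1 of the 2 let-7 genes that passed the filter in total RNA, had log2 values of 7.97 in hypoxia and 7.40 under control conditions there, with a z-score of 2.35. In ER-RNA it had 7.09 in hypoxia and 6.72 under control conditions, with a z-score of 1.57. MIRLET7D had 7.69 in hypoxia and 7.04 under control conditions in total RNA (z-score 2.13), and in ER-RNA 5.47 and 4.90, under the filter. In total RNA MIRLET7I and MIRLET7D passed the filter through the hypoxia array alone. Their control values lay below the median of the control array (7.41). None of the 9 was called, and MIRLET7F2 and MIR98, both within the gene HUWE1, were lower in total RNA (0.831-fold and 0.930-fold).

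Genes that sit side by side can be cut from 1 transcript. Of the 153 miRNA genes with a position and strand, 63 lay in 25 groups whose neighbours started within 10 kb of each other on the same strand. In total RNA every gene was higher in hypoxia in 16 of the 25 groups, in ER-RNA in 15, and in both fractions in 10. Taken singly, 81.3% of the 171 miRNA genes were higher in total RNA, 16.4% by over 1.4-fold, and 74.9% in ER-RNA. Of the 25 groups, 6 held 3 or more genes, and whether neighbours moved together was not tested. All genes of a group were over 1.4-fold higher in total RNA in 3 groups, and in no group in ER-RNA. The first was MIR221 and MIR222. The second was MIR24-2, MIR27A and MIR23A on chromosome 19, whose miRNAs act in cell cycle and lipid control. MIR24-2 had 7.17 in hypoxia and 6.18 under control conditions (1.99-fold), MIR23A 7.81 and 7.17 (1.56-fold, z-score 2.34) and MIR27A 7.74 and 7.20 (1.46-fold, z-score 1.94). MIR23A and MIR27A passed the total RNA filter through the hypoxia array alone, since their control values lay below the median of the control array (7.41). In ER-RNA MIR24-2, MIR23A and MIR27A were at 1.14-fold, 1.28-fold and 1.18-fold, so all 3 were higher there too, by less than 1.4-fold. The third group was MIR29A and MIR29B1 on chromosome 7, known to repress collagen mRNAs, at 1.72-fold and 1.42-fold in total RNA. In ER-RNA MIR29A was at 0.799-fold and MIR29B1 had the same value (2.15) on both arrays, among the lowest signals of the set.

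The groups of 3 or more also included 5 others. MIR299 to MIR376C (5 genes) and MIR487A to MIR410 (8 genes), parts of the imprinted miRNA region of chromosome 14, had median log2 fold changes of -0.014 and 0.22 in total RNA and of 0.12 and 0.076 in ER-RNA. MIR99B to MIR125A (3 genes on chromosome 19) had 0.26 and 0.30, with all 3 higher in both fractions. MIRLET7A1 to MIRLET7D (3 genes on chromosome 9) had 0.65 and 0.36, also with all 3 higher in both. MIR92A2 to MIR106A (3 genes on the X chromosome), a relative of the growth-promoting MIR17 cluster, had -0.013 and 0.13.

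Of the 16 host RNA genes, 10 were higher in hypoxia in total RNA and 13 in ER-RNA, with medians of 0.16 and 0.21. These are shares of 62.5% (total RNA) and 81.2% (ER-RNA), beside 79.7% and 75.4% of the 187. For all genes the shares were 53.1% and 55.3%, with medians of 0.026 and 0.057. The expression filter was passed by 8 host RNA genes in total RNA and by 6 in ER-RNA. Apart from MIR31HG none was called. Of all expressed genes 2.32% (total RNA) and 1.12% (ER-RNA) rose, and with so few expressed host RNA genes a single call says little. MIR17HG, the host of a MYC-driven cluster, was at 1.70-fold in total RNA (7.10 in hypoxia and 6.33 under control conditions) and at 0.995-fold in ER-RNA, under the filter in both. MIR22HG, a stress-responsive RNA, was at 1.39-fold (z-score 1.89) in total RNA, and in ER-RNA at 1.04-fold. MIRLET7BHG was at 1.24-fold and 0.969-fold. MIR646HG, which had the lowest fold change of the host RNA genes in total RNA, was at 5.99 in hypoxia and 6.71 under control conditions there, and 4.93 in hypoxia and 4.83 under control conditions in ER-RNA.

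A measured host gene on the same strand was found for 59 of the 171 miRNA genes. Across them the log2 fold changes of miRNA gene and host had a Pearson r of 0.12 for total RNA and 0.16 for ER-RNA, and a Spearman rho of 0.15 and 0.026, a description over 59 pairs that come from the same arrays and include several miRNA genes in 1 host. In the pairs with miRNA gene and host both above the expression filter, r was -0.34 and rho -0.27 over 12 pairs in total RNA, while in ER-RNA r was 0.61 and rho 0.52 over 14 pairs. Of all 59 pairs, the signs were alike in 29 in total RNA and in 27 in ER-RNA. R3HDM1, the host of MIR128-1, fell in both fractions, to 0.442 of control (total RNA) and 0.546 of control (ER-RNA), while MIR128-1 had a log2 fold change of 0.10 and 0.20. ZRANB2, a splicing factor gene that hosts MIR186, was at 0.958-fold in total RNA and fell to 0.489 in ER-RNA. MIR186 was at 2.39-fold in total RNA (6.15 in hypoxia and 4.89 under control conditions) and at 0.733-fold in ER-RNA (3.11 and 3.56), all under the filter. PTPRN, a gene of secretory granules and the host of MIR153-1, rose 1.79-fold in total RNA, where MIR153-1 itself was under the filter. In ER-RNA PTPRN was at 1.78-fold and was not called.

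MIR210 was at 1.30-fold in total RNA, with log2 values of 9.40 in hypoxia and 9.02 under control conditions and a z-score of 1.38. In ER-RNA it was at 1.28-fold, with 8.76 and 8.41 and a z-score of 1.13, and so was called in neither. All 4 of its values lay above the array medians. Of 27 measured members of a list of miRNA genes linked to hypoxia, 6 passed the filter in each fraction, and none was called in either, where 2.32% (total RNA) and 1.12% (ER-RNA) of all expressed genes rose. With 6 expressed genes this count says little. In total RNA 22 of the 27 were higher, with a median of 0.22, where 79.7% of the 187 and 53.1% of all genes were higher. In ER-RNA 22 were higher, with a median of 0.23, where the shares were 75.4% and 55.3%. In total RNA 8 were over 1.4-fold, where 16.6% of the 187 and 5.22% of all genes were. Among the 8 were the neighbours MIR24-2, MIR27A and MIR23A, and of the 8 only MIR27A and MIR23A passed the filter. In ER-RNA 1 of the 27 was over 1.4-fold, MIR130A (1.59-fold), where 12.8% of the 187 and 6.57% of all genes were. The values of MIR130A there (4.88 in hypoxia and 4.21 under control conditions) lay under the filter.

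The level of signal followed the base composition of the hairpin. Across the 153 miRNA genes with a hairpin sequence, GC content (28.8% to 73.6%) and log2 signal had Pearson's r of 0.84 in hypoxia and 0.82 under control conditions in ER-RNA, and of 0.74 and 0.76 in total RNA. Spearman's rho was 0.82 and 0.80 in ER-RNA and 0.72 and 0.74 in total RNA. These are descriptions across genes of the same arrays, and genes are not independent replicates. In the third of genes with the highest GC content 25 of 51 passed the expression filter in total RNA and 27 in ER-RNA, beside 2 and 1 of the 51 with the lowest. A pass of the filter thus went with GC content, as did the ER-RNA fold change (r of 0.38), while that of total RNA did so less (0.073). MIR210, at 72.7% GC, is among the GC-rich hairpins, whereas MIR221 (47.3%), MIR222 (50.9%) and MIR196A1 (42.9%) are not. The part of base composition in these levels was not tested.

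**Figure D4:**
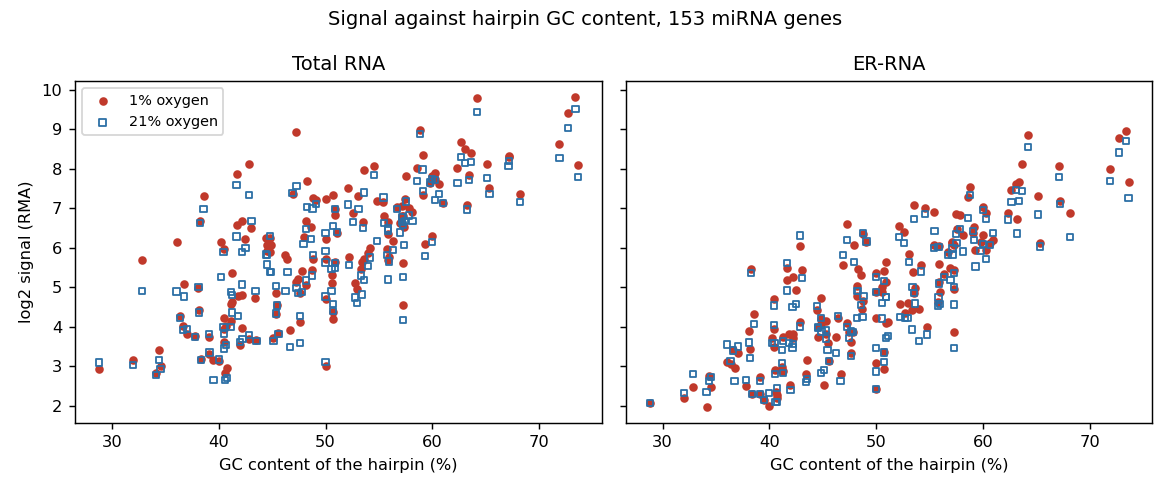
Log2 signal (RMA, y axis) against the GC content of the hairpin (x axis, %) of 153 miRNA genes in total RNA (left) and ER-RNA (right), with red filled circles for 1% oxygen and blue open squares for 21% oxygen. The clouds rise with GC content on all 4 arrays, with Pearson's r of 0.74 and 0.76 in total RNA and of 0.84 and 0.82 in ER-RNA.

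ER-RNA was set over total RNA after each array median was subtracted. The median difference of the 187 was 0.12 in hypoxia and 0.097 under control conditions on the log2 scale, beside 0.057 and 0.040 over all genes. Of the 187, 57.2% lay above 0 in hypoxia and 58.8% under control conditions, where 53.6% and 52.6% of all genes did, so they stood near the whole array. MIR31HG was at 1.03 in hypoxia and 0.98 under control conditions, MIR210 at 0.51 and 0.55, and MIR503HG at 0.45 and 0.45. MIR221 was at -1.18 in hypoxia and -0.20 under control conditions, and MIR24-2 at -2.03 and -1.22. In MIR31HG, MIR210 and MIR503HG the offset was thus nearly the same at both oxygen levels, whereas that of MIR221 was lower in hypoxia.

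The genes that process miRNAs were measured well, with 38 of 40 expressed in total RNA and 36 of 40 in ER-RNA. None of them was called up, where 2.32% (total RNA) and 1.12% (ER-RNA) of all expressed genes rose. At such low shares the lack of a call says little. By fold change alone, also without the expression filter, 3 of the 40 were over 1.4-fold higher in total RNA and 11 lower. For ER-RNA these counts were 0 and 12. Among all expressed genes 6.2% were over 1.4-fold higher and 18.6% lower in total RNA. The shares in ER-RNA were 6.53% and 21.4%. By the calling rule 5 of the 38 fell in total RNA, where 7.45% of all expressed genes did, and in ER-RNA 6 of the 36, where 8.25% did. The 5 fell in both fractions. XPO5, the exporter of hairpins, had a log2 value of 9.05 in hypoxia and 9.90 under control conditions in total RNA, and it fell to 0.552 of control there and to 0.527 in ER-RNA. NCBP1, which binds the cap of nascent transcripts, fell to 0.523 and 0.463. DDX20, a helicase found with Argonaute proteins, fell to 0.476 and 0.447. PARN, a nuclease that trims RNA 3′ ends, fell to 0.435 and 0.434. PNPT1, an RNA-degrading enzyme of mitochondria, fell to 0.407 and 0.334. TSN, which helps Argonaute loading as part of a nuclease, fell in ER-RNA only by the rule (0.458, with 0.723 in total RNA), and that contrast of fractions was not tested.

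The core enzymes were not called. DROSHA was at 0.707-fold (total RNA) and 0.669-fold (ER-RNA), with z-scores of -1.84 and -2.46, and DICER1 at 0.817-fold and 0.661-fold. DGCR8 was at 1.04-fold and 0.948-fold, and AGO2, the Argonaute that can cut its target, at 1.13-fold and 0.964-fold. Over the 40 genes the median log2 difference was -0.25 (total RNA) and -0.26 (ER-RNA), beside medians of 0.22 and 0.20 for the miRNA gene transcripts. These sets differ in signal level, since most processing genes were expressed and 137 of the 187 were under the filter in both fractions. All expressed genes had medians of -0.058 (total RNA) and -0.037 (ER-RNA), and all genes under the filter 0.096 and 0.14. Under the scaled MAD, calls among the processing genes were limited to 1 fall in total RNA, and in ER-RNA to 2.

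**Figure D5:**
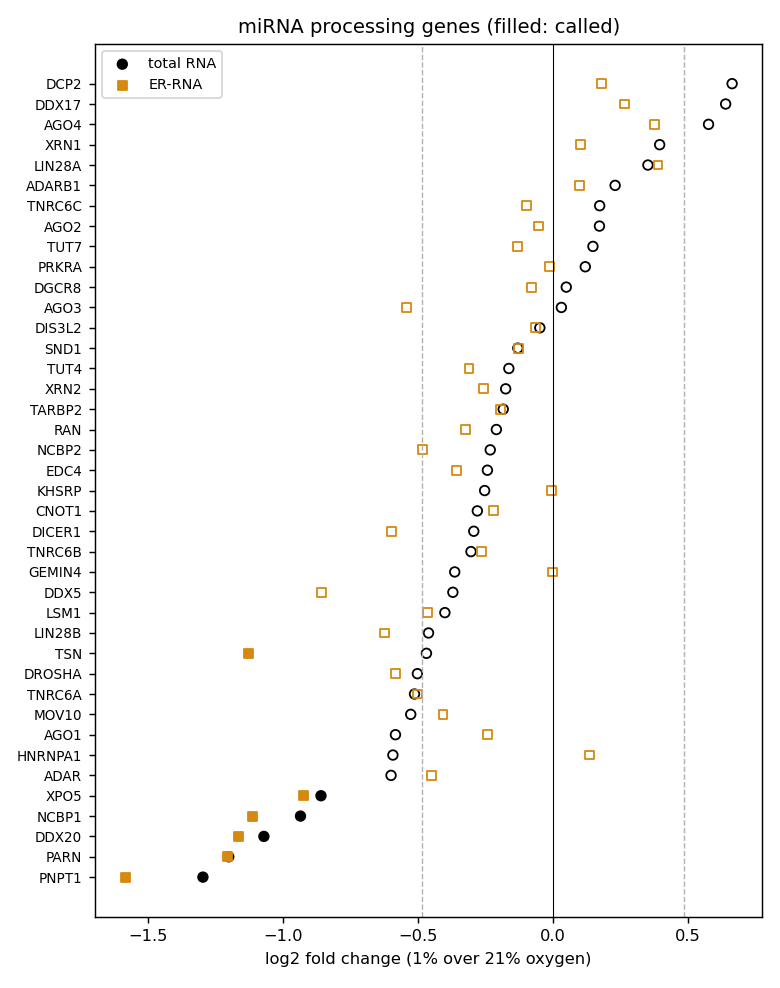
Log2 fold change, 1% over 21% oxygen (x axis), of 40 genes linked to miRNA processing in total RNA (black circles) and ER-RNA (orange squares), filled where called, with dashed lines at a fold change of 1.4. XPO5, NCBP1, DDX20, PARN and PNPT1 are filled in both fractions, between -0.86 and -1.30 in total RNA and between -0.92 and -1.58 in ER-RNA.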

How the data were processed

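The authors hybridised Affymetrix Human Gene 1.0 ST arrays and deposited RMA-normalized log2 values. Partek 6.4 is listed, beside RMA, in the submitters' processing notes. Whether the 4 arrays were normalized in 1 run, and the genome build of the probe sets, are not given in the sources used here. Of the 33297 probe sets, 19460 name 1 gene in the platform annotation. Symbols came from RefSeq by gene identifier (186 of the 187), and hairpin sequences were found for 153 of 171 miRNA genes. The calling rule used the thresholds of the methods, with a loess of span 0.75 and degree 2 over the expressed probe sets of each pair, in R 4.3.3 with limma 3.58.1 and matrixStats 1.5.0, and was tested on simulated data. The methods mention separate models for the treatment and the control group, so the form used here is a reading of them. Neighbours and hosts were found from RefSeq positions. With 1 array per group no p-value was computed. A fit with the fraction as a block was not run, since it would take the difference between fractions as its error. Genes were named by a rule: members called in either fraction, members over 1.4-fold in the same direction and expressed in both, measured members of the lists of hypoxia-linked miRNA genes and host RNA genes, the called processing genes with 5 core ones, and groups of 3 or more neighbours. The other members, such as MIR222, MIR31, MIR186, MIR29A and most let-7 genes, were named after their values were seen. Alternatives were other normalizations (common array median, quantile, loess within each pair), expression filters, an SD from the scaled MAD, other thresholds, the probe set with the lowest mean, and leaving out host RNA genes or members with shared values. The members and lists were chosen with earlier results of these data known.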

Additional observations from a re-analysis of the deposited data

Results flagged for a closer look

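In 14 miRNA gene transcripts the 2 fractions moved in opposite directions with at least 1 of them past 1.4-fold. With 1 array per group the difference was not tested, and 12 of the 14 were under the expression filter in both fractions. How many of all genes met the same rule was not counted, so whether 14 is more than usual is unknown. The log2 fold change in ER-RNA minus that in total RNA was -1.70 for MIR186, -1.11 for MIR29A, -1.03 for MIR196A1, -0.87 for MIR26A2, -0.84 for MIR183, -0.77 for MIR17HG and -0.61 for MIR154. It was 1.03 for MIRLET7F2, 0.84 for MIR323A, 0.82 for MIR646HG, 0.64 for MIR204, 0.61 for MIR124-2, 0.59 for MIR200C and 0.58 for MIR365A.

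Outside the 187, a probe set whose annotation names both MIR155 and MIR155HG rose in ER-RNA by 0.86 on the log2 scale, with 7.48 in hypoxia and 6.62 under control conditions and a z-score of 3.66. In total RNA the same probe set had 7.35 in hypoxia and 6.49 under control conditions, a log2 fold change of 0.86 under the expression filter.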

How the results depend on the processing

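The median log2 fold change of the 187 stayed above 0 under every alternative, between 0.13 and 0.36 in total RNA and between 0.080 and 0.33 in ER-RNA, and no value reversed. The probe set with the lowest mean and leaving out members with shared values could change nothing, since each member had 1 probe set and none shared its values. Counts moved more. Without the expression filter, rises numbered 20 in total RNA, with 1 fall, and 9 in ER-RNA. With 1 array above the 75% quantile 1 member rose in total RNA. With both arrays above the 50% quantile 3 rose in ER-RNA. With the scaled MAD 1 rose in total RNA, and 0 did so in ER-RNA, with fold change alone 8 and 9, and without host RNA genes 0 in ER-RNA. Members over 1.4-fold higher numbered 19 in total RNA and 14 in ER-RNA with a common array median, 3 and 8 with both arrays above the 50% quantile, 2 and 3 with the 75% quantile, 8 and 9 with the 50% filter, which was chosen after seeing the data, and 4 and 2 at a fold change over 2. With loess within each pair 13 were so in ER-RNA. Members over 1.4-fold lower numbered 2 in total RNA and 6 in ER-RNA with quantile normalization, 2 and 4 with loess within each pair, and 4 in ER-RNA with a common array median. They numbered 0 in both fractions with the stricter filters, the 50% filter and a fold change over 2, and 0 in total RNA without host RNA genes. Of the processing genes, 3 fell in total RNA, and 2 did so in ER-RNA, with the 75% quantile, 1 and 2 with the scaled MAD, 10 and 11 with fold change alone, where 3 also rose in total RNA, and 3 in total RNA at a fold change over 2. The cause of these moves was not tested.

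No paired analysis was made, because each group was 1 array of pooled RNA. In both fractions 137 of the 187 lay under the expression filter, and the calling rule makes no call there.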

Other observations

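In all, 34 probe sets name several genes of which at least 1 is a miRNA gene or host, and they entered no count. That of MIR224 and its host GABRE had 5.90 in hypoxia and 4.71 under control conditions in total RNA, and 3.39 and 3.27 in ER-RNA. That of MIR2682 and MIR137HG had 7.66 in hypoxia and 6.51 under control conditions in total RNA (z-score 2.92), and 5.76 and 5.47 in ER-RNA.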
